A study of Mus musculus with 8 samples.

Results

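The miR-342 hairpin gives 2 mature miRNAs, mmu-miR-342-5p from its first arm and mmu-miR-342-3p from its second, and both were followed through small RNA libraries of mouse CD8+ T cells. They were chosen by name, as 2 of the 1978 mature names in the table, with their levels and the ratio of the arms in these libraries already known. No threshold and no comparison of groups entered the choice. The levels and the arm ratio are therefore given as a description, and tests are given only for the differences between groups, from a fit over all miRNAs.

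The cells came from spleen, were enriched for CD8 on magnetic beads and were sorted on CD8, CD4, CD44 and CD122. The 8 libraries form 4 groups of 2: WT TN, WT MP, mCre TN and mCre MP, where WT and mCre name the mice and TN and MP the sorted subset. The labels do not spell these names out, and the design text writes VM where the titles write MP. In this field TN is often short for true naive, while VM is short for virtual memory, a pool with high CD44 and CD122 that arises before any encounter with antigen. The series title names miR-29 and Cre, an enzyme that cuts out DNA between its target sites. Which sequence it removed and which promoter drove it are not stated in the labels. Spleens were adult or neonatal by the protocol, with no age attached to single samples. Nothing in the labels ties replicates to different animals, and all p-values therefore reflect variation among these libraries only, which may be technical. In bulk samples, fewer cells of a type and less RNA per cell cannot be told apart.

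A miRNA hairpin is cut from a longer transcript by Drosha and then by Dicer, which leaves a short duplex of its 2 arms. Usually 1 strand, the guide, is loaded into an Argonaute protein and kept, while its partner is discarded. The choice is known to depend on how firmly each end of the duplex is paired and on the first base of each strand. miR-342 is known as a miRNA of lymphocytes, B cells included, and its 3p arm is usually taken as the guide. It is made from an intron of Evl, which encodes an actin regulator of the Ena/VASP family.

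The hairpin is shown because every result below is a comparison of its 2 arms, which are in capitals, first 5p and then 3p (RefSeq, GRCm38.p6, plus strand).
Mir342 hairpin: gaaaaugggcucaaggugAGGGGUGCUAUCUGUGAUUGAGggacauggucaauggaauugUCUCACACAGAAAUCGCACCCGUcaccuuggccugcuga

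Mir342 lies on chromosome 12 from 108658620 to 108658718, 99 bases long. The 5p arm takes bases 19 to 40 and the 3p arm bases 61 to 83, with 20 bases between them. In GENCODE M21, on the same build, 5 coding transcripts of Evl span the hairpin on the same strand, and in all 5 it falls in the intron from 108653100 to 108673288. That is intron 3 of 4 of these transcripts and intron 4 of Evl-204. The hairpin starts 5521 bases after the upstream exon, and no other annotated gene overlaps it.

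The mature sequences follow with the seed, bases 2 to 8, in capitals, since the seed is the stretch that selects targets.
miR-342-3p: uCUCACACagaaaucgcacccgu
miR-342-5p: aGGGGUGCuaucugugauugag

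The arms have different seeds, and miRNAs with different seeds are known to bind different targets. The 3p arm begins with U and the 5p arm with A, and their GC contents were 52.2% and 50.0%. Among 1679 mature names of the table that have a sequence in RefSeq, 0 others shared bases 2 to 8 with either arm. Each arm had a single row of whole-number counts in the deposited table, so neither was pooled from several rows or held a fractional count.

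Library totals ran from 1936597 to 5230975 counts. Levels below are in CPM, counts scaled to a common library size, after TMM scaling, which adjusts for a few abundant miRNAs taking a larger share of some libraries. Intervals cover counting error only. miRNAs of other cells were scarce beside those of lymphocytes. The 4 lymphocyte markers, miR-150-5p among them, summed to 51016.5 to 173372.7 CPM in TN and 45156.2 to 109818.2 CPM in MP libraries. The 3 myeloid markers summed to 16.3 to 30.5 CPM in TN and 15.4 to 54.0 CPM in MP, and the 4 erythroid and platelet markers to 37.9 to 100.8 and 72.7 to 156.8 CPM. The 4 endothelial and stromal markers summed to 15.8 to 37.7 CPM in TN and 24.9 to 60.5 CPM in MP. The myeloid marker miR-223-3p had 0 to 30 counts per library. Of the erythroid markers, miR-486a-5p had 147 to 293 counts and made up most of its list's sum, miR-451a had 0 to 33 and miR-144-3p was at 0 in all but 1 library. No B cell marker was among the lists, and the part of other cells in the results was not tested. A check on miR-29a-3p, of the family in the series title, went against 2 labels. It was lower in mCre MP (832.6 and 1498 CPM) than in WT MP (3105 and 11656 CPM), yet over all 8 libraries it was lowest (802.1 CPM) in the library labelled WT TN replicate 2 and highest (15390 CPM) in the library labelled mCre TN replicate 2. Ranges, spans and fitted differences that rest on these 2 libraries are given as labelled and again without them.

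miR-342-3p, the arm usually kept as guide, varied 8.94-fold over the 8 libraries and 4.60-fold without both TN replicate 2 libraries. In WT TN it stood at 2916 CPM in replicate 1 and 837 CPM in the library labelled replicate 2. In WT MP it was 3334 and 3889 CPM, in mCre TN 3212 and 7486 CPM, and in mCre MP 846.3 and 1336.5 CPM. The low libraries were thus both mCre MP libraries and the library labelled WT TN replicate 2, and the library labelled mCre TN replicate 2 stood above all others. The 3p counts behind these levels ran from 1486 to 21598. As a share of all counts, miR-342-3p took 0.0767% in the library labelled WT TN replicate 2 (95% Wilson interval 0.0729% to 0.0807%) and 0.739% in the library labelled mCre TN replicate 2 (0.729% to 0.749%). Counting error was therefore small beside the difference between these 2 libraries, which are of different groups. Within WT MP the shares were 0.374% (Wilson 0.368% to 0.381%) and 0.364% (0.358% to 0.37%), so the intervals overlapped. In each of the other groups the intervals of the replicates lay apart.

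miR-342-5p, the partner strand, varied 50.4-fold, but 4.05-fold without the library labelled mCre TN replicate 2 and 3.93-fold without both TN replicate 2 libraries. It was 1042 CPM in WT TN replicate 1 and 4226 CPM in the library labelled WT TN replicate 2. In WT MP it was 1993 and 1305 CPM, in mCre TN 2214 and 83.9 CPM, and in mCre MP 4100 and 2655 CPM. The 3 highest libraries for the 5p arm were the 3 lowest for the 3p arm, and the library with the most 3p had the least 5p. That lowest value rests on 242 counts, a share of 0.00828% (Wilson 0.0073% to 0.00939%). The SD of log2 CPM over the 8 libraries was 1.81 for miR-342-5p, larger than for 94.5% of the 382 miRNAs tested, and 1.13 for miR-342-3p, larger than for 62.3%. The SDs without both TN replicate 2 libraries were 0.71 and 0.883, larger than for 34.8% and 51.6%, so the wide spread of the 5p arm rests on 1 library.

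**Figure D1:**
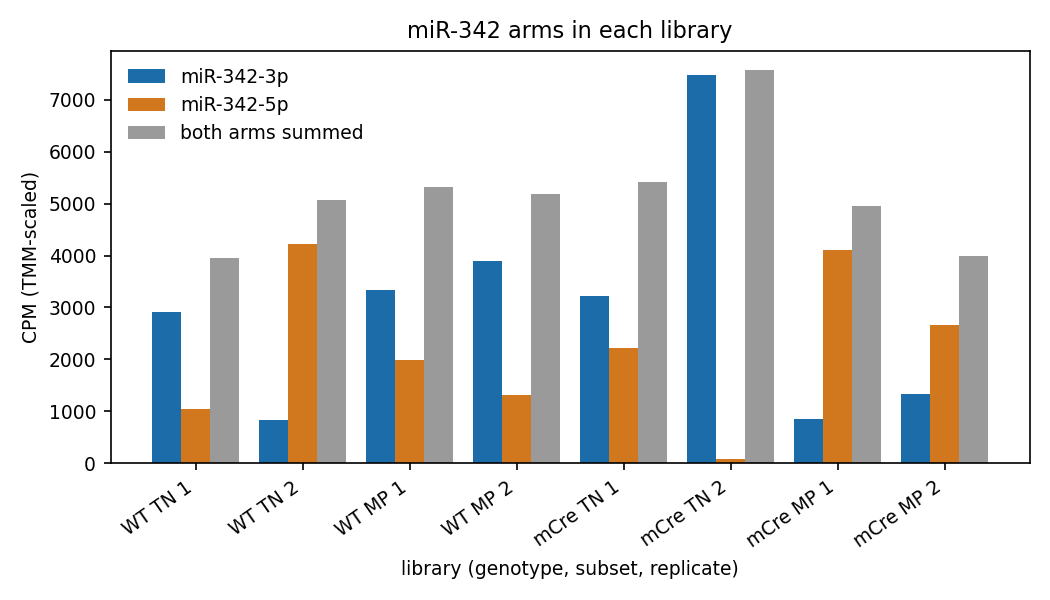
Bars give miR-342-3p (blue), miR-342-5p (orange) and their sum (grey) in CPM after TMM scaling for each of the 8 libraries, labelled by genotype, subset and replicate. The arms trade places between libraries, while the sum stays between 3958 and 7570 CPM.

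The arms summed to a steadier level than either arm alone. The sum was 3958 and 5063 CPM in WT TN, 5326 and 5194 CPM in WT MP, 5425 and 7570 CPM in mCre TN, and 4946 and 3991.5 CPM in mCre MP. Its range was 1.91-fold, against 8.94-fold and 50.4-fold for the arms, and without both TN replicate 2 libraries 1.37-fold, against 4.60-fold and 3.93-fold. Over the 8 libraries it averaged 5184 ± 1119 CPM (SD, n = 8). By this measure miR-342 ranked 11 among the 88 hairpins of which both arms could be tested, counted from the steadiest, where the median range of the sum was 4.46-fold. Leaving out both TN replicate 2 libraries, it ranked 2, with a median of 3.08-fold.

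The ratio of 3p to 5p counts shows the exchange directly, and library scaling does not touch it. The 3p arm led in 5 libraries and the 5p arm in 3. The ratio was 2.80 and 0.198 in WT TN, and 1.67 and 2.98 in WT MP. In mCre TN it was 1.45 in replicate 1 and 89.1 in the library labelled replicate 2, and in mCre MP it was 0.206 and 0.503. The highest and lowest ratio lay 449.5-fold apart, and both came from TN libraries labelled replicate 2. Without these 2 libraries the distance was 14.4-fold, and nearly all of that drop came with the library labelled mCre TN replicate 2. Put as a share of the hairpin's counts, the 5p arm made up 83.5% in the library labelled WT TN replicate 2 (Wilson 82.7% to 84.2%) and 1.11% in the library labelled mCre TN replicate 2 (0.978% to 1.26%). The kit joins adapters by ligation, which takes up different sequences unequally, so the ratio in 1 library is a ratio of reads and not of molecules. Comparing it between libraries assumes that this uptake was alike in them, which was not tested.

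On the log2 scale the ratio averaged 0.65 ± 2.82 (SD, n = 8), so the mean lies within the spread. Without the library labelled mCre TN replicate 2 the mean was -0.18, in favour of the 5p arm, and without both TN replicate 2 libraries it was 0.18. By group the log2 ratio was -0.43 ± 2.70 in WT TN, 1.16 ± 0.589 in WT MP, 3.51 ± 4.20 in mCre TN and -1.63 ± 0.909 in mCre MP (SD, n = 2 each). Only in MP did the replicates stand close relative to the distance between genotypes: both WT libraries favoured 3p (0.74 and 1.58) and both mCre libraries 5p (-2.28 and -0.99). This absence of overlap was shared by 65.9% of the 88 hairpins. The mCre MP libraries also did not overlap the mCre TN libraries (0.54 and 6.48), as in 60.2% of hairpins. The remaining contrasts overlapped for miR-342: MP against TN in WT, where 27.3% of hairpins did not overlap, mCre against WT in TN (17.0%), and the subsets with genotypes joined (2.27%).

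The arm ratio moved with the level of miR-29a-3p. In order of falling miR-342 log2 ratio, the libraries were mCre TN replicate 2 as labelled (6.48), WT MP replicate 2 (1.58), WT TN replicate 1 (1.48), WT MP replicate 1 (0.74), mCre TN replicate 1 (0.54), mCre MP replicate 2 (-0.99), mCre MP replicate 1 (-2.28) and WT TN replicate 2 as labelled (-2.34). In the same order miR-29a-3p stood at 15390, 11656, 2752, 3105, 1409, 1498, 832.6 and 802.1 CPM. The orders differ only by swaps of neighbours, WT TN replicate 1 with WT MP replicate 1 and mCre TN replicate 1 with mCre MP replicate 2. The share of counts taken by let-7 ran the other way in part: it was 69.5%, 64.0% and 60.2% in the library labelled WT TN replicate 2 and the mCre MP replicates 1 and 2, and 43.5% to 52.2% in the other 5. The part of library composition in the arm ratio was not tested, and 8 libraries sharing depth and composition are not 8 independent readings of such a link.

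**Figure D2:**
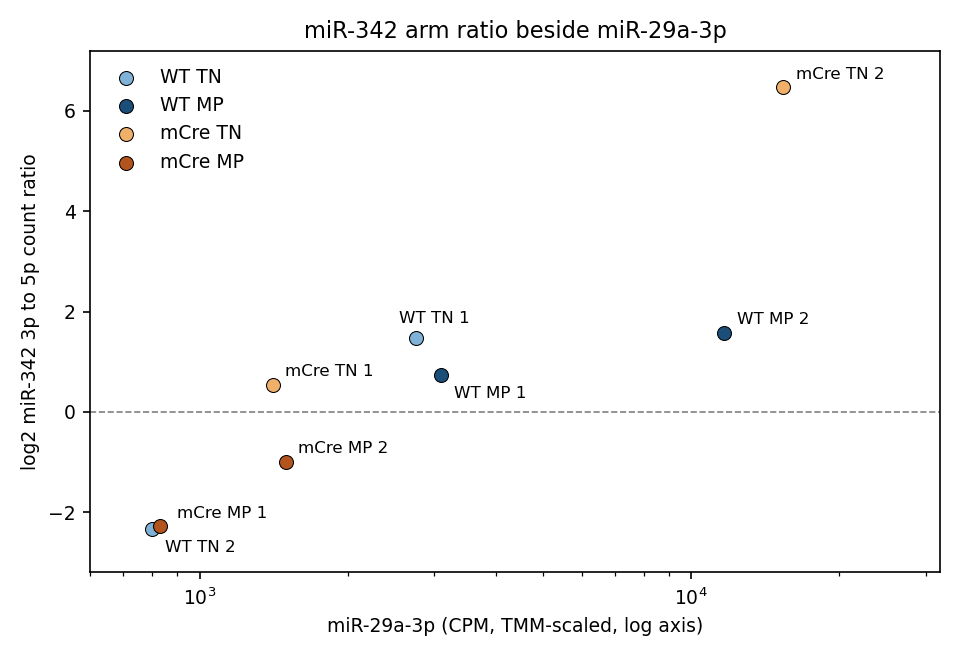
Each point is 1 of the 8 libraries, with miR-29a-3p in CPM on a log axis against the log2 ratio of miR-342-3p to miR-342-5p counts, coloured by group. The ratio runs from -2.34 where miR-29a-3p is 802.1 CPM to 6.48 where it is 15390 CPM, and points below the dashed line have more 5p than 3p.

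Other hairpins were read in the same way to see how far miR-342 differs. Its log2 ratio spanned 8.81, the third widest of the 88 hairpins, after miR-674 (11.2) and miR-29c (9.34), each with an arm that had 0 counts in at least 1 library. The median span was 3.81. Without the library labelled mCre TN replicate 2 the span of miR-342 was 3.91, rank 33, where the median was 3.41. With both TN replicate 2 libraries left out it was 3.85, rank 32, where the median was 3.10. In 29 hairpins (33.0%) the leading arm changed between libraries, and in 23 without both, miR-342 among them each time. Among the 10 hairpins whose scarcer arm averaged at least 1000 counts, a limit set after the values were seen, miR-342 had the widest span, against a median of 3.35, and 6 changed their leading arm. That rank also rests on the library labelled mCre TN replicate 2: without it miR-30e was widest, at 4.12, and miR-342 the next. Over all 8 libraries miR-361 came next with 6.54 and turned the opposite way: its log2 ratio was -4.04 in the library labelled mCre TN replicate 2 and 2.5 in mCre MP replicate 1, where miR-342 had 6.48 and -2.28. The median log2 ratio of the other 87 hairpins stayed between -0.82 and -0.07 over the 8 libraries. Such a median can stay put while single hairpins move in opposite directions. The arm that was lower on average led in 6 and 11 of the 87 in WT TN replicates 1 and 2, and in 3 and 2 in WT MP. In mCre TN it led in 1 and 8, and in mCre MP in 13 and 9.

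**Figure D3:**
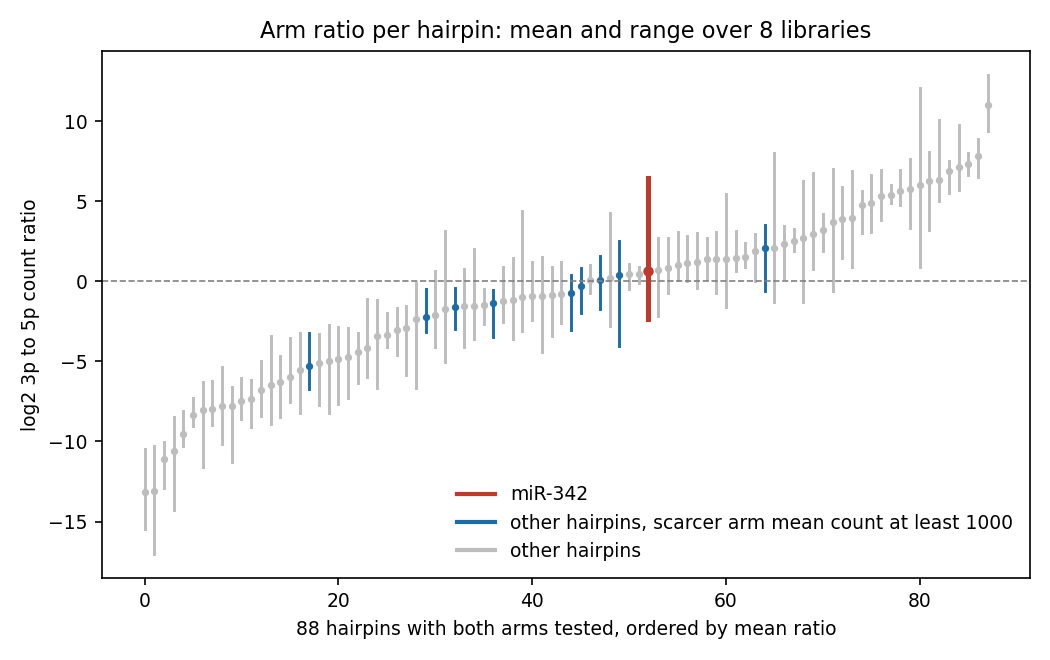
Each vertical line spans the lowest to the highest log2 ratio of 3p to 5p counts over the 8 libraries for 1 of the 88 hairpins, with its mean as a point, in order of the mean. miR-342 (red) spans -2.34 to 6.48, the longest line among hairpins with at least 1000 counts on average in the scarcer arm (blue), with the upper end set by the library labelled mCre TN replicate 2.

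Of the lymphocyte hairpins that could be read, miR-150, miR-155 and miR-21a kept the same leading arm in every library. miR-146a and miR-181a-1, also in the fixed set, were not among the hairpins with both arms tested. miR-150, whose 5p arm restrains Myb in lymphocytes, had a log2 ratio from -6.72 to -3.24, always in favour of 5p, and miR-155, which effector T cells need, from -11.3 to -6.57. miR-21a, which is induced on T cell activation, stayed between -15.5 and -10.5, with a 3p arm that averaged 18.5 counts. miR-142a, a hairpin of blood cells that uses both arms, ranged from -1.96 to 0.84 and did change its leading arm. In miR-150, miR-155 and miR-142a the lowest ratio was in the library labelled mCre TN replicate 2, where miR-342 had its highest. miR-21a went with miR-342, with its highest log2 ratio (-10.5) in that library. The hairpins nearest to miR-342 in mean log2 ratio (0.65) were miR-664 (0.73), miR-330 (0.46) and miR-3068 (0.45). miR-664 favoured 5p in the same 3 libraries as miR-342, at -2.19, -2.19 and -0.95, while miR-330 stayed between -0.09 and 0.89.

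In mean level over the libraries, miR-342-3p held rank 33 of the 382 miRNAs tested, at 2982 ± 2177 CPM, and miR-342-5p rank 39, at 2202 ± 1443 CPM (SD, n = 8). Next above miR-342-3p stood miR-148a-3p (3205 CPM), miR-669c-5p (3292) and miR-140-3p (3442), and next below miR-30e-3p (2838), miR-24-3p (2391) and miR-1198-5p (2367). Around miR-342-5p stood miR-3968 (2261 CPM), miR-142a-5p (2324.5) and miR-1198-5p above and miR-150-3p (2192), miR-101b-3p (2042) and miR-374b-5p (1991) below. All of these gaps are smaller than the SD of miR-342 over the libraries. The neighbours were picked for the nearest means, and whether they differ from miR-342 within libraries was not tested. Within single libraries the rank of miR-342-3p by count ran from 21 to 59 and that of miR-342-5p from 25 to 131.

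The miRNAs most like each arm were sought by Pearson's r of log2 CPM over the 8 libraries, as a description of points that share depth and composition. For miR-342-3p they were miR-296-5p (r = 0.987), miR-361-5p (0.982), miR-652-3p (0.974), miR-23a-3p (0.970) and miR-93-5p (0.969). For miR-342-5p they were let-7d-3p (0.990), miR-674-3p (0.984), miR-6952-3p (0.964), miR-340-3p (0.956) and miR-224-5p (0.949). The arms of miR-342 had an r of -0.824 with each other, and all 5 miRNAs most like an arm had a negative r with the other arm. miR-361-5p ran from 86.9 to 1716 CPM and let-7d-3p from 1183 to 8191 CPM, so the likeness is not limited to scarce miRNAs. Several matches were scarce, however. miR-296-5p ran from 1.06 to 63.1 CPM, miR-340-3p from 1.73 to 118.8, miR-6952-3p from 0 to 14.6 and miR-224-5p from 0 to 12.7 CPM. miR-29a-3p had an r of 0.877 with miR-342-3p, at place 38 in that order, and of -0.832 with miR-342-5p. Its values without both TN replicate 2 libraries, its own highest and lowest, were 0.745 and -0.758. When both TN replicate 2 libraries were left out, the r of the arms was -0.807, and that of the 5 miRNAs most like each arm ran from 0.972 to 0.988 for miR-342-3p and from 0.664 to 0.943 for miR-342-5p.

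The 3 miRNAs most like miR-342-3p and then the 2 most like miR-342-5p are shown, seeds in capitals, because none shares its seed with miR-342.
miR-296-5p: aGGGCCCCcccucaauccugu
miR-361-5p: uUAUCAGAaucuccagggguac
miR-652-3p: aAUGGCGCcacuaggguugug
let-7d-3p: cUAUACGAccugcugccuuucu
miR-674-3p: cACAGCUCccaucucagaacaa

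MP was compared with TN to ask what sets the sorted subsets apart. Neither arm separated them over both genotypes. For miR-342-3p the MP libraries averaged 2351 ± 1486 CPM against 3613 ± 2790 for TN, and for miR-342-5p 2513 ± 1193 against 1891 ± 1783 (SD, n = 4 each), with overlap for both arms where 11.3% of miRNAs did not overlap. The log2 fold changes were -0.67 ± 0.85 (SE) for miR-342-3p and 0.44 ± 0.99 for miR-342-5p. In edgeR's quasi-likelihood test, after Benjamini-Hochberg adjustment over 382 miRNAs, the adjusted p was 0.806 and 0.880, in a comparison where 9 miRNAs (2.36%) passed 0.05. The sign for miR-342-5p turned without 1 of the libraries, to -0.38 without the library labelled mCre TN replicate 2 and to -0.01 without mCre MP replicate 1. Without both TN replicate 2 libraries the log2 fold changes were -0.85 for miR-342-3p and 0.49 for miR-342-5p.

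Within genotypes the subset difference of miR-342-3p ran in opposite directions. In WT it was higher in both MP libraries (3334 and 3889 CPM) than in both TN libraries (2916 and 837 CPM), an absence of overlap seen in 39.5% of miRNAs, with a log2 fold change of 0.94 ± 0.71 (edgeR adjusted p = 0.783). Without both TN replicate 2 libraries that value was 0.19. In mCre it was lower in both MP libraries (846.3 and 1336.5 CPM) than in both TN libraries (3212 and 7486 CPM), as 65.2% of miRNAs also lacked overlap, with a log2 fold change of -2.29 ± 0.74 (edgeR adjusted p = 0.197). miR-342-5p changed places: -0.68 ± 1.23 in WT, with overlap, and 1.56 ± 1.26 in mCre, without overlap (edgeR adjusted p = 0.891 and 0.440). The WT value for miR-342-5p was 0.56 without both TN replicate 2 libraries, and the mCre value was 5.27 without mCre TN replicate 1 and 0.44 without the library labelled mCre TN replicate 2, and 0.43 without both TN replicate 2 libraries.

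None of these within-genotype differences passed in the main test, which called 0 of 382 miRNAs (0%) in WT and 0 (0%) in mCre. Before adjustment, 31 and 82 miRNAs had a p under 0.05 in WT and mCre, and by DESeq2 10 and 41 passed. DESeq2 was 1 of several settings under which miR-342-3p did pass in mCre, at -2.33 ± 0.74 (DESeq2 adjusted p = 0.0225). It also passed without the filter on low counts (edgeR adjusted p = 0.0387), without WT TN replicate 1 (0.0284), without the library labelled WT TN replicate 2 (0.0403) and without both TN replicate 2 libraries (-1.68, edgeR adjusted p = 0.0495). Its direction in mCre was the same in all settings run.

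The mCre genotype was compared with WT in each subset. Within MP the mCre libraries averaged 1091 ± 347 CPM of miR-342-3p against 3611 ± 393 for WT. The averages for miR-342-5p were 3377 ± 1022 CPM for mCre and 1649 ± 486.1 for WT (SD, n = 2 each). Neither arm overlapped between the genotypes in MP, a state shared by 64.7% of miRNAs. The log2 fold changes were -1.73 ± 0.73 for miR-342-3p and 1.03 ± 1.24 for miR-342-5p (edgeR adjusted p = 0.411 and 0.710). Without both TN replicate 2 libraries, which belong to neither group compared, miR-342-3p stood at -1.74 and miR-342-5p at 0.95. The value of miR-342-3p hardly moved, while its SE fell from 0.73 to 0.42. That fit kept 1 library in each TN group, so its estimate of the spread came from the MP libraries alone.

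In TN the genotypes ran the other way for miR-342-3p, with values that rest on the 2 libraries that went against the miR-29a-3p check. miR-342-3p averaged 5349 ± 3023 CPM for mCre against 1876.5 ± 1470 for WT (SD, n = 2 each), without overlap where 22.5% of miRNAs had none, with a log2 fold change of 1.51 ± 0.72 (edgeR adjusted p = 0.957). Replicate 1 alone gave 3212 CPM in mCre and 2916 CPM in WT, and without both TN replicate 2 libraries the log2 fold change was 0.13. miR-342-5p overlapped, at -1.20 ± 1.25 (edgeR adjusted p = 0.957), and turned to 0.20 without the library labelled WT TN replicate 2 and to 1.08 without both.

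By edgeR 0 of 382 miRNAs (0%) passed for the genotype in MP and 0 (0%) in TN, with 41 and 12 below 0.05 before adjustment, and by DESeq2 0 passed in both. The difference of the subset effect between genotypes, mCre minus WT, was -3.24 ± 1.02 for miR-342-3p and 2.23 ± 1.76 for miR-342-5p on the log2 scale (edgeR adjusted p = 0.301 and 0.513). No miRNA passed this test by edgeR (0 of 382, 0%), with 54 below 0.05 before adjustment, while by DESeq2 18 passed, miR-342-3p among them at -3.12 ± 1.04 (DESeq2 adjusted p = 0.0481). It also passed by edgeR without WT TN replicate 1, at -4.52 (edgeR adjusted p = 0.0177). Without both TN replicate 2 libraries the difference was -1.87 for miR-342-3p and -0.13 for miR-342-5p. These comparisons share libraries, so the opposite signs of the arms across them are not separate observations.

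**Figure D4:**
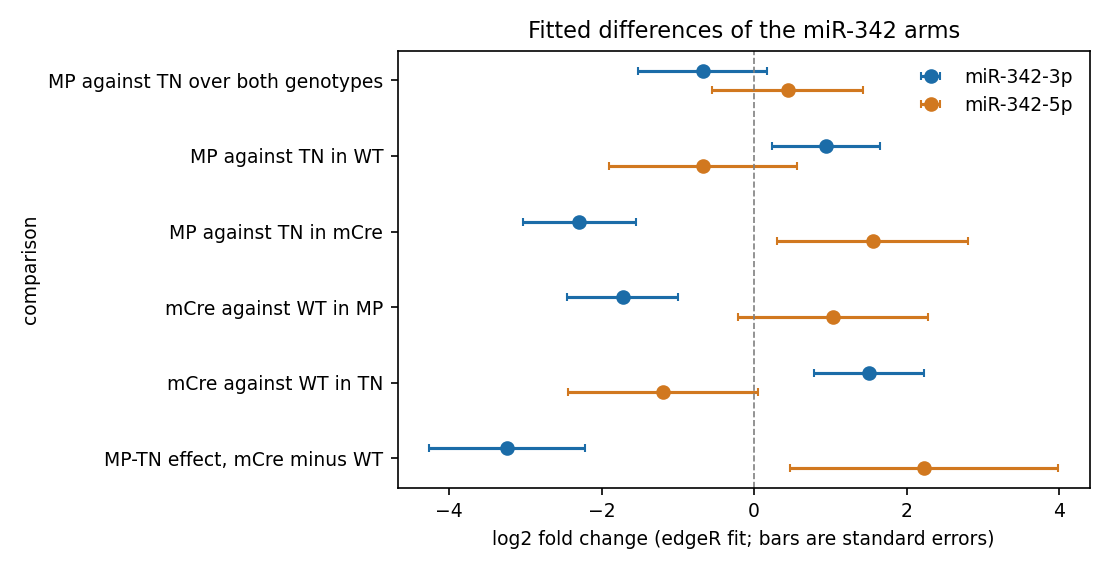
Points give the fitted log2 fold change of miR-342-3p (blue) and miR-342-5p (orange) in 6 comparisons, with standard errors as bars. With all libraries as labelled the arms have opposite signs throughout, from -3.24 and 2.23 in the difference of subset effects to -0.67 and 0.44 over both genotypes, and no value passed the adjusted threshold of 0.05. Without both TN replicate 2 libraries they shared a sign for MP against TN in WT (0.19 and 0.56). They also did for mCre against WT in TN (0.13 and 1.08) and the difference of subset effects (-1.87 and -0.13).

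Other miRNAs of resting lymphocytes were set beside miR-342. Of 10 tested in MP against TN over both genotypes, 0 passed in either direction, with a median log2 fold change of -0.32 against -0.04 over all 382. For mCre against WT in MP, 0 of 10 passed, with a median of -1.06 against -0.23 over all 382. miR-150-5p was 43540 and 72673 CPM in mCre MP and 83131 and 104654 CPM in WT MP, so the groups did not overlap, as in 64.7% of all miRNAs. miR-26b-5p was 4553 and 8550 CPM in mCre MP and 14942 and 37811 CPM in WT MP, with no overlap either. miR-26a-5p was 11714 and 17287 CPM in mCre MP and 28509 and 29494 CPM in WT MP. With miR-342-3p over the 8 libraries, r was 0.86 for miR-150-5p, 0.93 for miR-26b-5p, 0.90 for miR-26a-5p and 0.38 for miR-30c-5p. The same 4 stood, without both TN replicate 2 libraries, at 0.69, 0.87, 0.98 and 0.96. miR-139-5p, picked out after its values were seen, ran the other way, with an r of -0.61 with miR-342-3p and 0.83 with miR-342-5p, and of -0.31 and 0.35 without both. It was lowest, at 337.3 CPM, in the library labelled mCre TN replicate 2, where miR-342-3p was highest.

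A list of miRNAs of T cell activation was read in the same comparisons. In MP against TN over both genotypes, 2 of its 7 tested members rose, miR-146a-5p and miR-21a-5p, and 0 fell, where 9 of 382 (2.36%) passed. The list's median was 1.27 against -0.04 over all 382. miR-146a-5p, which dampens signalling to NF-kB, ran from 1793 to 3686 CPM in TN and from 11758 to 17137 CPM in MP, so the subsets did not overlap, as in 11.3% of all miRNAs. Its log2 fold change was 2.61 ± 0.37 (edgeR adjusted p = 0.0137). miR-21a-5p ran from 9528 to 21120.5 CPM in TN and from 42239.5 to 72079 CPM in MP, at 1.87 ± 0.36 (edgeR adjusted p = 0.0392). The call of miR-146a-5p was lost without WT TN replicate 1, WT MP replicate 1, WT MP replicate 2, mCre TN replicate 1 or mCre MP replicate 2, at adjusted p values from 0.0657 to 0.112 by edgeR. The call of miR-21a-5p was lost without any 1 library other than the one labelled WT TN replicate 2 (0.0614 to 0.258), with total count scaling (0.102) and with the replicate block (0.0733), all by edgeR. Both passed without both TN replicate 2 libraries. With miR-342-3p and miR-342-5p, r was -0.13 and 0.20 for miR-146a-5p and 0.03 and 0.20 for miR-21a-5p. Without both TN replicate 2 libraries it was -0.37 and 0.43 for miR-146a-5p and -0.21 and 0.34 for miR-21a-5p. Over the 7 members r ran from -0.51 to 0.87 with miR-342-3p, highest for miR-221-3p, and from -0.52 to 0.87 with miR-342-5p, highest for miR-222-3p, both named after their values were seen. The r of miR-221-3p with miR-342-3p was 0.89 without both TN replicate 2 libraries. That of miR-222-3p with miR-342-5p was 0.43 without both and 0.27 without the library labelled mCre TN replicate 2, so its high value rests on that library.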

How the data were processed

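Small RNA libraries of 8 sorted mouse CD8+ T cell samples were read from 1 table of expected counts deposited by the authors, with 2128 rows and 1978 mature names. The genome build was mm10, per the submitters' processing notes; the aligner, counter and miRNA annotation: not given in the sources used here. Rows of 1 name were summed and rounded. The filterByExpr rule of edgeR 4.0.16 (minimum count 10, minimum total 15) left 382 miRNAs to test. The main test was edgeR's quasi-likelihood test in R 4.3.3 with TMM factors, robust estimation and Benjamini-Hochberg adjustment over all 382, at 0.05. A 4-group fit had 4 residual degrees of freedom and an additive fit of subset and genotype 5. Standard errors (SE) are the absolute fold change over the square root of F. The fit was tested on simulated data. Log2 CPM used a prior count of 2. Arm ratios used counts with 0.5 added to both arms, for the 88 hairpins whose 5p and 3p names were both tested. Values of r, ratios and ranks carry no test. DESeq2 1.42.0, other scalings, no filter, left-out libraries and a replicate block were the alternatives. Sequences came from RefSeq (GRCm38.p6), which matched 308 of the 382 tested names.

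The arms, lists and named miRNAs were chosen with earlier results of these data known. The naming rule takes both arms, 3 neighbours in mean level on each side, the 5 highest r per arm, the 3 hairpins nearest in ratio, a fixed set of lymphocyte hairpins, and list members by level.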

Additional observations from a re-analysis of the deposited data

Results flagged for a closer look

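For miR-342-3p, mCre lay below WT in both MP libraries and above WT in both TN libraries, an absence of overlap that 64.7% of all miRNAs had in MP and 22.5% in TN. The test of that difference, the change of the subset effect from WT to mCre, was -3.24 ± 1.02 on the log2 scale and did not pass (edgeR adjusted p = 0.301). The TN side rests on the 2 libraries labelled replicate 2 that went against the miR-29a-3p check, since replicate 1 stood at 3212 CPM in mCre and 2916 CPM in WT. Without both, the value was -1.87 (edgeR adjusted p = 0.618).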

How the results depend on the processing

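Of 180 fitted values of the arms under alternatives, 165 kept their direction and their side of the threshold, 8 passed it and 7 turned. Values of miR-342-3p that passed were, for MP against TN in mCre, -2.45 without the filter on low counts, -2.33 by DESeq2, -2.39 without WT TN replicate 1, -2.30 without the library labelled WT TN replicate 2 and -1.68 without both TN replicate 2 libraries; for mCre against WT in MP, -1.74 without both TN replicate 2 libraries; and for the difference of subset effects, -3.12 by DESeq2 and -4.52 without WT TN replicate 1. With both TN replicate 2 libraries left out, miR-342-5p turned to 0.56 for MP against TN in WT, 1.08 for mCre against WT in TN and -0.13 for the difference of subset effects. Where miR-342-3p passed with the libraries left out in neither group compared, its value hardly moved and its SE fell. The cause of the other changes was not tested, and where a group kept 1 library its spread was assumed to be that of the others.

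Leaving out 1 library at a time, miR-342-3p ranged from -1.43 to -0.14 for MP against TN over both genotypes, 0.22 to 2.13 in WT and -2.85 to -1.68 in mCre. For mCre against WT it ranged from -2.10 to -1.37 in MP and 0.73 to 2.70 in TN, and from -4.52 to -2.48 for the difference of subset effects. In the same order miR-342-5p ranged from -0.38 to 1.08, -1.33 to 0.58, 0.44 to 5.27, 0.73 to 1.29, -4.97 to 0.20 and 0.84 to 5.92; the sign changes were -0.38 and -0.01 over both genotypes, 0.58 in WT and 0.20 in TN. The mean log2 arm ratio ranged from -0.18 to 1.08 and its MP minus TN difference from -3.07 to -0.13. Mean levels ranged from 2343 to 3317 CPM for miR-342-3p and 1941 to 2521 CPM for miR-342-5p.

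The count of all miRNAs called for MP against TN over both genotypes was 9, against 19 without the filter, 26 by DESeq2, 2 with the replicate block, 49 without both TN replicate 2 libraries and 0 to 41 without 1 library. For MP against TN it was 0 in both genotypes, against 6 and 24 without the filter, 10 and 41 by DESeq2, 14 and 30 without both TN replicate 2 libraries, and up to 6 and 56 without 1 library. For the difference of subset effects it was 0, against 10, 18, 0 and up to 68. For mCre against WT in MP it reached 63 without both TN replicate 2 libraries, and in TN 1 without the filter. The split of 5 higher and 4 lower calls over both genotypes became 4 and 6 with RLE factors, 4 and 5 with total count scaling, and 4 and 4 with TMM factors made without let-7 and miR-29. The counts are not over equal numbers of miRNAs: 382 were tested with all libraries and the filter, and 877 without the filter. Without both TN replicate 2 libraries 433 were tested, and without 1 library 426 to 444. Total count scaling moved the median log2 fold change of all miRNAs for MP against TN in mCre from -0.18 to -0.49.

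The main fit did not pair libraries by replicate number. Replicate deviations correlated between groups at -0.32 to 0.41. With 2 libraries per group, these values cannot tell whether the numbers mark shared animals or batches. With the replicate block miR-342-3p was -2.28 for MP against TN in mCre (edgeR adjusted p = 0.301), and no call of either arm changed. The scarcest reading, 242 counts of miR-342-5p, limits precision far less than the spread between libraries. Ranges, spans and values of r without the TN replicate 2 libraries were added after seeing the data.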
